A study of Mus with 7 samples.

Results

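The 9 genes described here encode enzymes, and 1 transporter, through which macrophages make itaconate, use arginine, break down aromatic amino acids and clear superoxide. They are *Acod1*, *Il4i1*, *Nos2*, *Gch1*, *Sod2*, *Ass1*, *Arg1*, *Arg2* and *Slc7a2*, taken by symbol from the 31053 genes of the count files, and all 9 were found. They were followed in self-renewing fetal liver-derived macrophages (FLMs) of wild-type C57BL/6J mice, cells that grow in GM-CSF at 30 ng/mL and that were between their 10th and 20th passage. Each of 7 libraries held single-cell RNA counts of 1 condition. Con cells stood in 10% FBS and were taken before any treatment. The cells of Veh.LPS.0, of Veh.LPS.1 and of Veh.LPS.4 had spent 24 h in 0.25% FBS with 8.3 µM BSA, the carrier, and were then collected or given fresh medium with *Salmonella* LPS at 20 ng/mL for 1 or 4 h. DHA.LPS.0, DHA.LPS.1 and DHA.LPS.4 cells were handled alike but had 25 µM docosahexaenoic acid (DHA), an omega-3 fatty acid, on that BSA. Con therefore differs from Veh.LPS.0 in serum, BSA and time together, and these cannot be told apart. The study asked how DHA alters the response of macrophages to LPS.

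The enzymes meet at a few branch points. *Acod1* (also called *Irg1*) takes cis-aconitate out of the tricarboxylic acid (TCA) cycle and turns it into itaconate, an immunomodulatory metabolite of activated macrophages. Arginine can be split by arginase into ornithine and urea or oxidised by inducible nitric oxide synthase (*Nos2*) into nitric oxide and citrulline, a reaction that needs tetrahydrobiopterin, whose synthesis starts at *Gch1*. Argininosuccinate synthase (*Ass1*) begins the return of citrulline to arginine, *Slc7a2* imports cationic amino acids, *Il4i1* is a secreted oxidase of phenylalanine and other aromatic amino acids, and *Sod2* is the manganese superoxide dismutase of mitochondria.

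Only barcodes with more than 20000 UMIs (unique molecular identifiers, each standing for 1 captured RNA molecule), at least 2000 genes and under 20% mitochondrial UMIs were kept, which left 692 to 3073 cells and 22045775 to 125716982 UMIs per library. Barcodes at 20% mitochondrial UMIs or more made up 29.0% to 54.7% of Con and Veh barcodes and 74.4% to 80.0% of DHA barcodes. Kept cells differed in depth, with a median of 56239 UMIs in Veh.LPS.4 and 29631 UMIs in DHA.LPS.4. Every kept cell held at least 3 of 9 macrophage markers and none held 3 markers of any of 7 other cell types, so no other type was there in which to measure free RNA. Pairs of libraries shared 0 to 4 barcodes among kept cells. Levels are given as CPM, UMIs scaled to a library total of 1000000, and their 95% intervals cover counting error only. With 1 library per condition no difference has a replicate check, so no test was made. A gene counts as past the limit when its CPM ratio exceeds 1.5-fold either way and a UMI of it is held by 25% or more of the cells in either library.

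**Figure D1:**
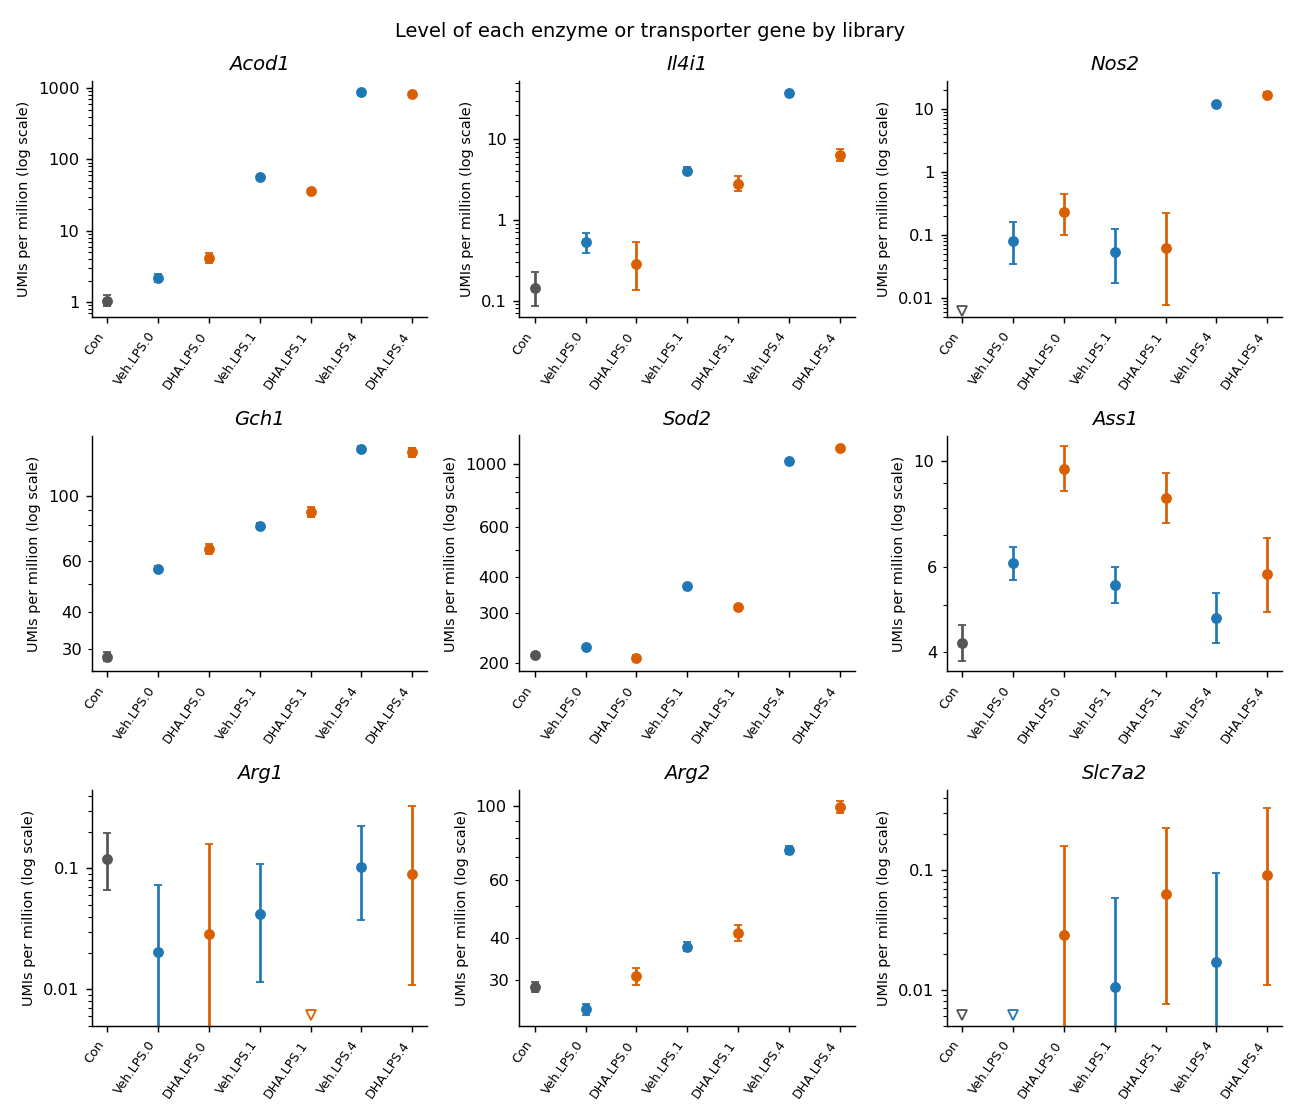
Level of each of the 9 genes in CPM (log axis, scale differs by panel) in the 7 libraries, with Con in grey, Veh in blue and DHA in orange. Bars are exact Poisson 95% intervals, bars that reach the lower edge continue below it, and open triangles mark libraries with no UMI. *Acod1*, *Gch1*, *Sod2* and *Arg2* had their highest values in both 4 h LPS libraries, *Il4i1* stood far higher in Veh.LPS.4 than in any other library, and *Arg1* and *Slc7a2* had at most 15 and 2 UMIs in any library.

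*Acod1* (ENSMUSG00000022126, chr14:103047012-103056573 in GRCm38) was near 0 without LPS and high at 4 h. Con held 1.04 CPM. Vehicle cells held 2.17 CPM before LPS, 56.7 CPM after 1 h and 885 CPM after 4 h, and DHA-pretreated cells held 4.20, 36.4 and 827 CPM. Each LPS library thus lay above every library without LPS, and the intervals of no neighbours in this order overlapped. These intervals take no account of UMIs that clump in single cells. Without its highest cell DHA.LPS.0 held 2.63 CPM, and Veh.LPS.0 without its own held 2.005 CPM.

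The *Acod1* ratio of Veh.LPS.1 to Veh.LPS.0 was 26.2 (95% interval 22.8 to 30.2), and that of Veh.LPS.4 to Veh.LPS.0 was 408 (357 to 469). In DHA-pretreated cells the ratios to DHA.LPS.0 were 8.67 (7.29 to 10.4) at 1 h and 197 (168 to 233) at 4 h. These ratios rest on denominators of 214 UMIs in Veh.LPS.0 and 147 UMIs in DHA.LPS.0. Of the 147 UMIs, 37.4% came from 1 cell that held 55. In cells of 20000 to 40000 UMIs, a comparison added after the data were seen, the log2 ratios to 0 h were 5.15 at 1 h and 8.96 at 4 h in Veh (4.71 and 8.67 over all kept cells) and 4.88 and 9.29 in DHA (3.12 and 7.62). The lower ratios of the DHA libraries at 4 h thus did not hold in these cells, and at 1 h the gap narrowed. The denominators there were only 66 UMIs in Veh.LPS.0 and 9 UMIs in DHA.LPS.0, so these ratios are imprecise, those of DHA most.

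Between DHA and Veh, *Acod1* pointed in different directions with time. At 0 h its ratio was 1.94 (1.56 to 2.40). Among cells of 20000 to 40000 UMIs the level with DHA was 1.37 CPM (0.624 to 2.59, 9 UMIs). With Veh it was 1.41 CPM (1.09 to 1.79, 66 UMIs). At 1 h the ratio was 0.641 (0.601 to 0.683), the only member past the limit in that comparison, where 3.07% of the 7794 genes tested were past it and 1.73% were lower. In cells of 20000 to 40000 UMIs this ratio was 0.800 (0.733 to 0.871), no longer past the limit. At 4 h the ratio was 0.935 (0.919 to 0.951) over all kept cells and 1.21 (1.16 to 1.26) in cells of 20000 to 40000 UMIs, of which Veh.LPS.4 had 121. The direction at 4 h therefore turned with the depth of the cells compared. With all deposited barcodes the 4 h log2 ratio was -0.41 in place of -0.10. The median over all genes moved as well, to -0.18 in place of 0.08.

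To set cells side by side, each was thinned at random to 20000 UMIs. An *Acod1* UMI was then found in 0.688% of Con cells, and without LPS in 2.02% of vehicle cells and 2.01% of DHA-pretreated cells. At 1 h the shares were 31.4% in Veh and 23.0% in DHA, and at 4 h they were 97.5% and 97.4%. At 1 h most cells lacked the transcript at this depth, and at 4 h nearly all held it. The cells that held it carried a mean of 3.50 UMIs in Veh.LPS.1 and 3.38 in DHA.LPS.1, and 17.9 and 16.9 at 4 h. The median over all cells was 15 UMIs in Veh.LPS.4 and 14 in DHA.LPS.4. The 10% of cells with most *Acod1* held 67.7% of its UMIs in Veh.LPS.1 and 78.0% in DHA.LPS.1, against 25.2% and 25.6% at 4 h.

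**Figure D2:**
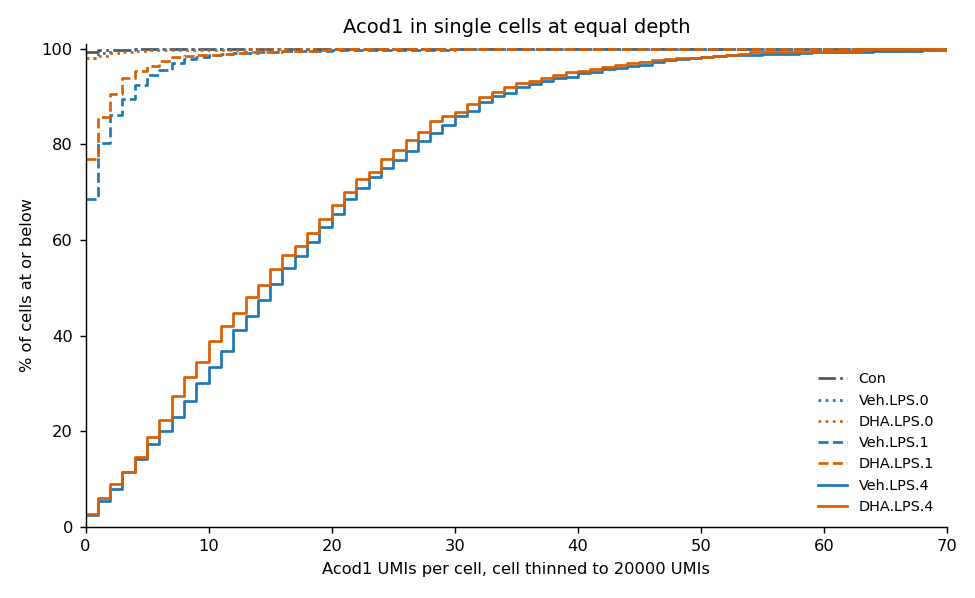
Cumulative share of cells (vertical axis, % of cells) with up to a given number of *Acod1* UMIs (horizontal axis) after every cell was thinned to 20000 UMIs. Grey is Con, blue is Veh and orange is DHA, and dotted, dashed and solid lines are 0, 1 and 4 h of LPS. The curves of the 4 h libraries nearly coincide with medians of 15 and 14 UMIs, while at 1 h 31.4% of Veh cells and 23.0% of DHA cells held any.

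*Il4i1* (ENSMUSG00000074141, chr7:44836288-44840809), the aromatic amino acid oxidase, showed the widest difference between DHA and Veh after LPS among the members. Con held 0.143 CPM (18 UMIs). Vehicle cells held 0.527 CPM (52 UMIs) before LPS, 4.08 CPM after 1 h and 37.4 CPM (2190 UMIs) after 4 h. DHA-pretreated cells held 0.286 CPM (10 UMIs), 2.83 CPM and 6.44 CPM (142 UMIs). DHA.LPS.4 thus lay between the 1 h libraries and Veh.LPS.4, and the intervals of DHA.LPS.0 overlapped those of Con and of Veh.LPS.0.

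The *Il4i1* ratio of Veh.LPS.4 to Veh.LPS.0 was 71.0 (53.9 to 95.4), while that of DHA.LPS.4 to DHA.LPS.0 was 22.6 (11.9 to 48.1). On the log2 scale these were 6.15 and 4.50, and in cells of 20000 to 40000 UMIs they were 4.87 and 4.62, the latter on 2 UMIs in DHA.LPS.0. DHA over Veh was 0.542 (0.246 to 1.08) at 0 h, 0.693 (0.545 to 0.874) at 1 h and 0.172 (0.144 to 0.204) at 4 h. The 1 h ratio was 0.440 (0.293 to 0.639) in cells of 20000 to 40000 UMIs. When each 1 h library was split at its median depth, the direction differed. The shallower cells had 6.82 CPM with vehicle and 1.88 CPM with DHA. The deeper cells had 2.23 CPM (126 UMIs) with vehicle and 3.42 CPM (67 UMIs) with DHA. *Il4i1* was the only member past the limit in the 4 h comparison, where 4.64% of 7672 genes were and 2.42% were lower. It met the limit on cells only through Veh.LPS.4 (37.0% of cells before thinning, against 9.97% in DHA.LPS.4), so there too its call could hardly have gone the other way. The 4 h log2 ratio of -2.54 was -1.46 in cells of 20000 to 40000 UMIs, where *Il4i1* had 7.47 CPM with DHA and 20.6 CPM with Veh and its ratio was 0.363 (0.271 to 0.488). There the gene also fell under the limit on cells, with a UMI in 22.3% of the 121 Veh cells.

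The difference was present in the shallower and the deeper cells of each 4 h library. When each library was split at its median depth, *Il4i1* had 41.7 CPM (shallower) and 34.7 CPM (deeper) with vehicle, and 7.32 CPM and 5.88 CPM with DHA. Barcodes left out for a high mitochondrial share of the same libraries held 67.0 CPM with vehicle and 13.1 CPM with DHA. DHA was lower than Veh in each of these sets.

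At equal depth 24.8% of Veh.LPS.4 cells (22.1 to 27.6) and 6.50% of DHA.LPS.4 cells (4.78 to 8.61) held an *Il4i1* UMI. At 1 h the shares were 5.04% and 3.65%, and without LPS they were 0.138% in Con, 1.05% in Veh and 0.430% in DHA. Cells that held the transcript at 4 h carried a mean of 3.18 UMIs in Veh and 1.96 in DHA, so both the share of cells and the amount in positive cells were lower with DHA. The transcript was uneven among cells of Veh.LPS.4, where 62 of 993 cells held 10 or more UMIs before thinning and the highest 10% of cells at equal depth held 77.2% of the UMIs. In DHA.LPS.4, 2 of 692 cells held 10 or more before thinning. Its cells were shallower, with a median of 29631 UMIs against 56239, so 10 UMIs were harder to reach. At equal depth the highest cell held 28 *Il4i1* UMIs in Veh.LPS.4 and 8 in DHA.LPS.4. In RefSeq's annotation *Il4i1* overlaps *Il4i1b* and *Tbc1d17*. *Tbc1d17* had 9.10 to 12.7 CPM over the 7 libraries, with 9.30 CPM (vehicle) and 10.1 CPM (DHA) at 4 h, and reads shared with *Il4i1b* could not be told apart.

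*Nos2* (ENSMUSG00000020826, chr11:78920787-78960226), the inducible nitric oxide synthase, was all but confined to the 4 h libraries. At 4 h it reached 12.0 CPM (703 UMIs) with vehicle and 16.8 CPM (371 UMIs) with DHA. Con had 0 UMIs, which allows up to 0.0239 CPM, Veh.LPS.0 and DHA.LPS.0 had 8 each, Veh.LPS.1 had 5 and DHA.LPS.1 had 2. The 5 libraries without LPS or with 1 h of it cannot be ordered at such counts.

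The ratio of Veh.LPS.4 to Veh.LPS.0 was 148 (74.8 to 344) for *Nos2*, and that of DHA.LPS.4 to DHA.LPS.0 was 73.7 (37.0 to 172). DHA over Veh at 4 h was 1.40 (1.23 to 1.59). No *Nos2* ratio could be counted as past the limit, since fewer than 25% of cells held a UMI in every library. At equal depth the shares of cells were 12.6% (10.6 to 14.8) in Veh.LPS.4 and 17.6% (14.9 to 20.7) in DHA.LPS.4. The mean over all cells at equal depth was 0.292 UMIs with DHA and 0.247 with vehicle, a log2 ratio of 0.24 in place of 0.49. Positive cells carried fewer *Nos2* UMIs with DHA, a mean of 1.66 against 1.96. In CPM and share of cells, *Nos2* and *Il4i1*, both highest after 4 h of LPS, thus differed in opposite directions between DHA and Veh. The *Nos2* difference was the smaller and shrank at equal depth.

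*Gch1* (ENSMUSG00000037580, chr14:47153895-47189413), which encodes GTP cyclohydrolase 1, had 28.2 CPM in Con. Vehicle cells held 56.3 CPM before LPS, 79.1 CPM after 1 h and 145 CPM after 4 h, and DHA-pretreated cells held 66.1, 88.4 and 142 CPM. It was the only member past the limit between Veh.LPS.0 and Con, with a ratio of 1.995 (1.91 to 2.08), in a comparison where 17.1% of 8252 genes were and 9.31% were higher. With LPS its ratio in Veh cells was 1.41 (1.36 to 1.46) at 1 h, under the limit unless RLE factors were used, and 2.58 (2.50 to 2.67) at 4 h. DHA over Veh was 1.17 at 0 h, 1.12 at 1 h and 0.975 (0.936 to 1.02) at 4 h, and in cells of 20000 to 40000 UMIs the last was 1.38 (1.24 to 1.53). With all deposited barcodes the log2 ratios turned to -0.18 at 0 h and -0.25 at 1 h, in place of 0.23 and 0.16. The 4 h log2 ratio was then -0.46 in place of -0.04. Medians over all genes moved too, to -0.25, -0.31 and -0.18 at 0, 1 and 4 h. Among kept cells these medians were -0.05, -0.05 and 0.08. The share of cells with a *Gch1* UMI at equal depth was 40.4% in Con and lay between 61.4% and 67.2% without LPS, between 73.6% and 76.7% at 1 h and between 88.4% and 88.6% at 4 h. Each step in time moved this share further than DHA did.

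*Ass1* (ENSMUSG00000076441, chr2:31470270-31520670) was the member past the limit between DHA and Veh before LPS. With DHA it stood at 9.65 CPM and with vehicle at 6.13 CPM, a ratio of 1.57 (1.38 to 1.80). Of all 8434 genes 2.03% were past the limit there and 1.08% were higher. *Ass1* met the limit on cells only through DHA.LPS.0, where it was higher (28.8% of cells before thinning, against 17.8% in Veh.LPS.0), so its call could hardly have gone the other way. At 1 h the levels were 8.39 and 5.52 CPM, a ratio of 1.52 (1.31 to 1.77), but too few cells held a UMI for the gene to count. At 4 h they were 5.81 and 4.71 CPM, a ratio of 1.23 (0.992 to 1.53) whose interval includes equal levels. In cells of 20000 to 40000 UMIs the ratios were 1.34 (0.988 to 1.80), 1.67 (1.37 to 2.02) and 1.18 (0.685 to 2.15) at 0, 1 and 4 h. With all deposited barcodes the log2 ratios were 0.21, 0.14 and -0.28, in place of 0.66, 0.60 and 0.30. Medians over all genes were then -0.25, -0.31 and -0.18, in place of -0.05, -0.05 and 0.08.

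At equal depth *Ass1* was detected in 15.2% of cells with DHA and 11.3% of cells with vehicle at 0 h, in 15.4% and 9.34% at 1 h, and in 8.67% and 9.47% at 4 h. Con had 4.18 CPM and 7.08% of cells. The DHA library at 4 h was lower than that at 0 h, with a ratio of 0.602 (0.487 to 0.740), while the ratio of DHA.LPS.1 to DHA.LPS.0 was 0.870 (0.738 to 1.02) and its interval includes equal levels. That of Veh.LPS.4 to Veh.LPS.0 was 0.769 (0.664 to 0.888), and it went above 1 when libraries were scaled by TMM or RLE factors instead of by their totals.

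*Slc7a2* (ENSMUSG00000031596, chr8:40862341-40922070), the cationic amino acid transporter CAT2, had 0 UMIs in Con and Veh.LPS.0 and 1 or 2 in each of the other 5 libraries. *Arg1* (ENSMUSG00000019987, chr10:24915207-24927470), the cytosolic arginase, had 15 UMIs in Con, 0 in DHA.LPS.1 and 1 to 6 in the other 5. The highest *Arg1* level was 0.119 CPM (0.0668 to 0.197), in Con. Neither gene was measured well enough for a comparison after LPS or DHA.

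*Arg2* (ENSMUSG00000021125, chr12:79130788-79156301), the mitochondrial arginase, was by contrast detected in 32.5% to 78.2% of cells at equal depth. Con held 28.6 CPM. Vehicle cells held 24.5 CPM before LPS, 37.8 CPM after 1 h and 73.6 CPM after 4 h, and DHA-pretreated cells held 30.8, 41.6 and 99.1 CPM, above vehicle at each hour among kept cells. With all deposited barcodes the log2 ratio of DHA over Veh was -0.01 at 0 h and -0.16 at 1 h, in place of 0.33 and 0.14, and 0.14 at 4 h in place of 0.43. Each lay above the median of all genes in that setting, which was -0.25, -0.31 and -0.18 at 0, 1 and 4 h.

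The *Arg2* ratio to 0 h was 1.54 (1.47 to 1.62) at 1 h and 3.01 (2.86 to 3.16) at 4 h in Veh cells. DHA over Veh was 1.26 (1.17 to 1.35) at 0 h, 1.10 (1.03 to 1.17) at 1 h and 1.35 (1.28 to 1.42) at 4 h, none of them past the limit. In cells of 20000 to 40000 UMIs the 4 h ratio was 1.52 (1.33 to 1.75), just past it. The share of cells with an *Arg2* UMI at equal depth was 66.6% (63.5 to 69.5) in Veh.LPS.4 and 78.2% (74.9 to 81.2) in DHA.LPS.4. *Arg2* overlaps *Vti1b* in RefSeq's annotation. At 4 h *Vti1b* had 61.2 CPM with vehicle and 84.9 CPM with DHA but was lower, not higher, at 4 h than the 109 CPM of Veh.LPS.0. Its part in the *Arg2* values was not tested.

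*Sod2* (ENSMUSG00000006818, chr17:13007839-13018119) was found in at least 99.7% of the kept cells of every library. Con held 214 CPM. Vehicle cells held 229 CPM before LPS, 375 CPM after 1 h and 1029 CPM after 4 h, and DHA-pretreated cells held 209, 315 and 1142 CPM. The ratio to 0 h at 4 h was 4.50 (4.43 to 4.57) in Veh and 5.47 (5.33 to 5.62) in DHA. DHA over Veh was 0.912 (0.889 to 0.937) at 0 h, 0.840 (0.821 to 0.859) at 1 h and 1.11 (1.09 to 1.13) at 4 h, so it was below 1 before and at 1 h of LPS and above 1 at 4 h. With all deposited barcodes the 4 h log2 ratio was -0.16 in place of 0.15. The median over all genes was then -0.18 in place of 0.08.

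**Figure D3:**
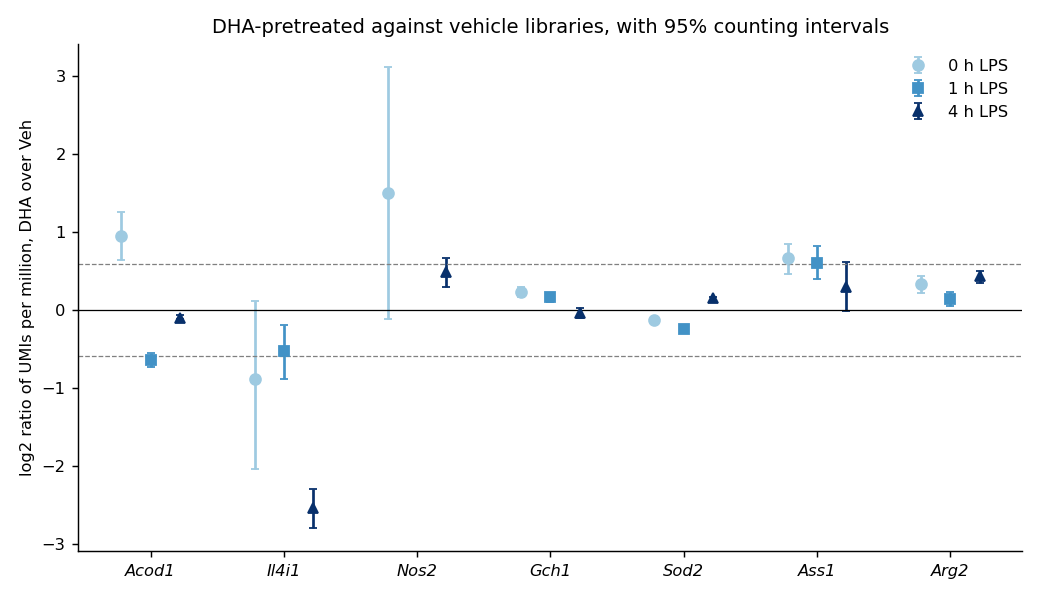
Log2 ratio of CPM in DHA over Veh libraries at 0, 1 and 4 h of LPS (circles, squares and triangles) for 7 genes, with exact 95% counting intervals. Dashed lines mark 1.5-fold, *Arg1* and *Slc7a2* had too few UMIs, and *Nos2* at 1 h is left out with 2 and 5 UMIs. *Il4i1* at 4 h lies at -2.54, *Acod1* moves from 0.95 at 0 h to -0.64 at 1 h and -0.10 at 4 h, and *Ass1* lies above 0 at each hour.

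Counted together, 3 of the 4 members with enough positive cells were past the limit after 1 h of LPS in vehicle cells, all of them higher (*Acod1*, *Sod2* and *Arg2*), and of all 8089 genes 8.39% were past it and 4.15% higher. After 4 h all 5 with enough positive cells were higher (*Acod1*, *Il4i1*, *Gch1*, *Sod2* and *Arg2*), where 48.5% of 8385 genes were past the limit and 10.2% were higher. The same 5 were higher between Veh.LPS.4 and Veh.LPS.1, where 37.3% of 8010 genes were past the limit and 7.98% were higher. A member that reached 25% of cells only after LPS had to be higher there, as was so for *Acod1* and *Il4i1*.

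In the DHA libraries 2 of 5 members were past the limit between 1 and 0 h (*Acod1* and *Sod2*, both higher), against 9.63% of 8474 genes, with 4.66% higher. Between 4 and 0 h all 5 were past it, with *Acod1*, *Gch1*, *Sod2* and *Arg2* higher and *Ass1* lower, against 43.2% of 8477 genes, with 9.64% higher and 33.6% lower. *Ass1* met the limit on cells only through DHA.LPS.0, and with TMM or RLE factors its log2 ratio of -0.73 became -0.43 or -0.39 and it was no longer past the limit. Between 4 and 1 h *Acod1*, *Gch1*, *Sod2* and *Arg2* were higher, all 4 that could count, against 30.3% of 7847 genes, with 6.97% higher. The DHA comparisons and the LPS comparisons share libraries, so their values are not independent of each other.

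**Figure D4:**
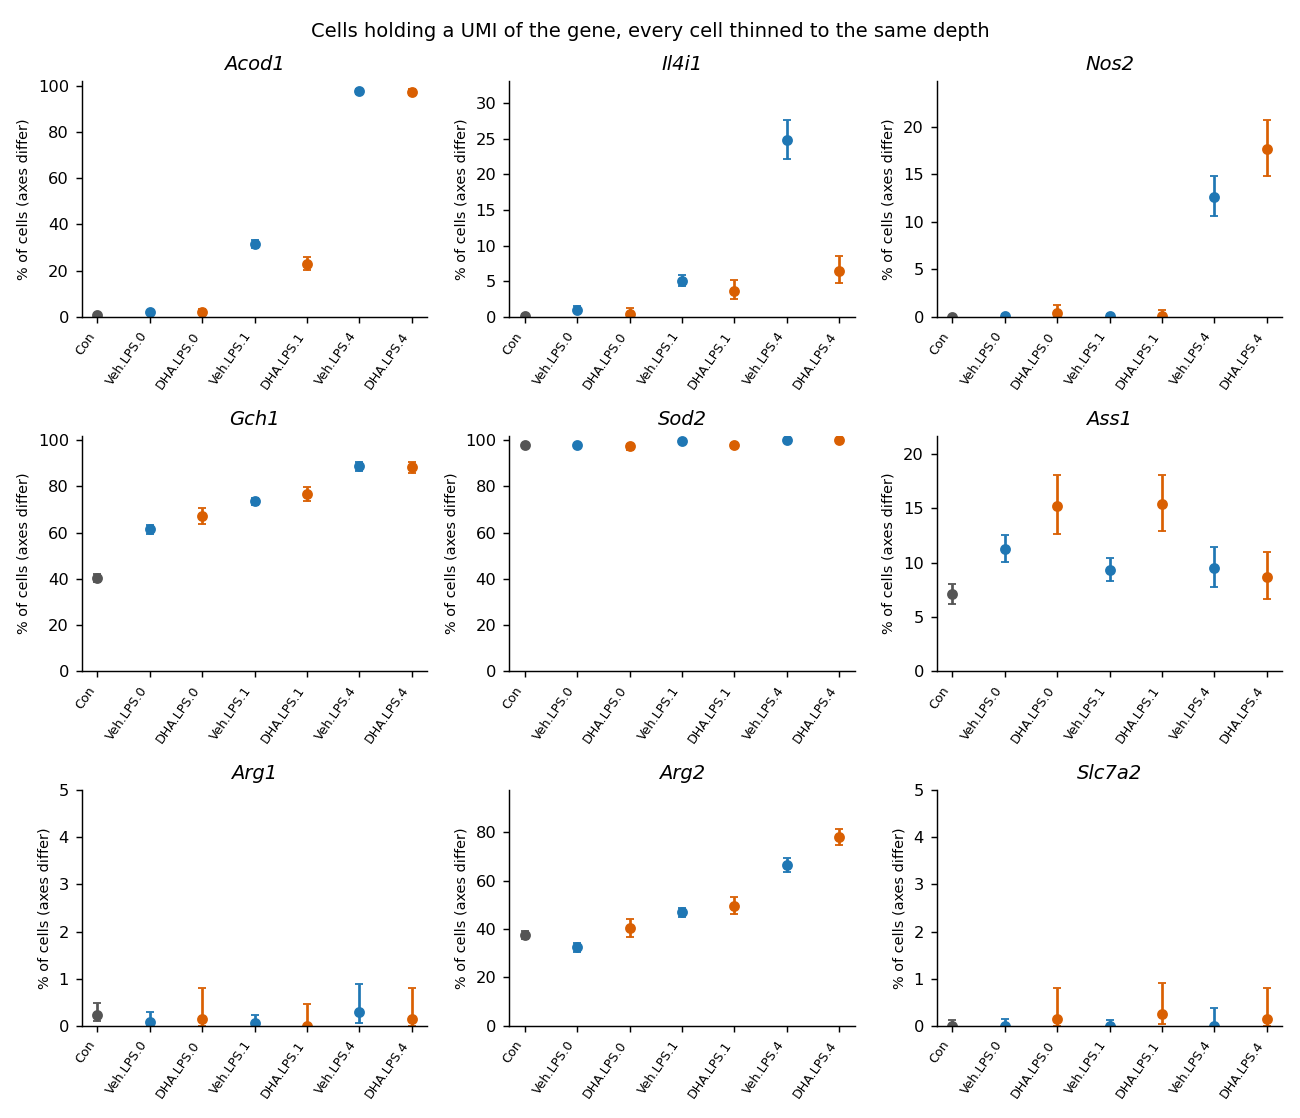
Share of kept cells (%, scale differs by panel) with at least 1 UMI of each gene after every cell was thinned to 20000 UMIs, with exact binomial 95% intervals. Con is grey, Veh blue and DHA orange. *Acod1* went from 2.02% of Veh.LPS.0 cells to 97.5% of Veh.LPS.4 cells, *Il4i1* reached 24.8% of Veh.LPS.4 and 6.50% of DHA.LPS.4 cells, and *Sod2* was near 100% throughout.

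Few cells held all 3 of the genes that were nearly absent without LPS. After 4 h, 3.73% of Veh cells (37 of 993) and 1.01% of DHA cells (7 of 692) held a UMI of *Acod1*, *Il4i1* and *Nos2* together at equal depth, and exactly 1 of the 3 was held by 64.9% and 74.3%. The single shares were 97.5%, 24.8% and 12.6% in Veh.LPS.4 and 97.4%, 6.50% and 17.6% in DHA.LPS.4. The share with all 3 cannot exceed the lowest of these. Whether the genes share cells more or less often than their single shares give was not tested. The 246 Veh.LPS.4 cells with *Il4i1* carried a mean of 22.3 *Acod1* UMIs, and the 747 cells without it carried 15.8. In DHA.LPS.4 the means were 21.5 UMIs in 45 cells with *Il4i1* and 16.2 UMIs in the rest. *Acod1* was thus higher in *Il4i1*-positive cells of both libraries. *Il4i1* was detected in 29.6% of *Nos2*-positive cells of Veh.LPS.4 (21.8 to 38.4) and in 24.1% of its other cells (21.3 to 27.1), intervals that overlap. At 1 h in Veh, *Arg2* was found in 52.4% of the 966 *Acod1*-positive cells (49.2 to 55.6) and in 44.4% of the rest (42.2 to 46.5). In DHA.LPS.1 it was found in 50.3% of the 183 *Acod1*-positive cells (42.8 to 57.7) and in 49.5% of the rest (45.5 to 53.6). The difference in share was thus seen in Veh only, though the DHA interval for *Acod1*-positive cells is wide. Mean *Arg2* UMIs were higher in *Acod1*-positive cells of both libraries. They were 0.865 against 0.695 in Veh.LPS.1 and 0.913 against 0.781 in DHA.LPS.1. Whether the 2 libraries differ in this was not tested. Cells of 1 library are not replicates, and each value describes its own library.

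Genes of 6 related pathways were read beside the members, 96 in all. Among 23 genes of aconitate and the TCA cycle, the pathway from which *Acod1* draws, 22 had enough positive cells for the comparison of 4 h with 0 h in vehicle cells. None was past the limit upward and 10 were lower, with a list median log2 ratio of -0.55 against -0.36 over all genes, of which 38.3% were lower. The lowest were *Idh1* (isocitrate dehydrogenase 1, 16.4 against 48.0 CPM), the citrate carrier *Slc25a1* (28.6 against 71.9 CPM), *Ogdh* (31.3 against 63.6 CPM) and the cytosolic aconitase *Aco1* (11.5 against 20.4 CPM). With TMM factors, which moved the median of all genes from -0.36 to 0.07, 3 of the 22 were lower and 1 higher. Of all genes 21.1% were then lower and 21.6% higher, and the list median was -0.12.

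Of 7 genes of tetrahydrobiopterin synthesis and recycling, 6 had enough positive cells and 5 were lower at 4 h in Veh, where 38.3% of all genes were. *Gch1*, the first enzyme of that route, was higher. *Spr* (sepiapterin reductase) had 15.9 CPM against 39.6 CPM without LPS and *Qdpr*, a recycling enzyme, 29.6 against 52.4 CPM. *Gchfr*, whose product binds and regulates GTP cyclohydrolase 1, had 15.2 CPM against 30.3 CPM. It had been 6.73 CPM in Con, a ratio of Veh.LPS.0 to Con of 4.50 (4.17 to 4.87). The list median was -0.78 against -0.36 over all genes. With TMM factors it was -0.35 and *Spr* alone was lower, where 21.1% of all genes were.

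Of 17 genes of arginine supply and transport 9 had enough positive cells, and 4 were higher at 4 h and none lower, where 10.2% of all genes were higher. The list median was 0.58, and with TMM factors it was 1.01 and 5 of the 9 were higher, where 21.6% of all genes were. All 4 encode amino acid transporters or a partner of one, and 1 of them carries cationic amino acids. *Slc7a11*, the cystine-glutamate exchanger, had 262 against 28.4 CPM and *Slc3a2*, its heavy-chain partner, 354 against 149 CPM. *Slc38a2*, a neutral amino acid transporter, had 369 against 149 CPM. *Slc7a1* (CAT1), a cationic amino acid transporter related to *Slc7a2*, had 54.3, 95.3 and 120 CPM in vehicle cells at 0, 1 and 4 h. It was higher already at 1 h, as were *Slc7a11* and *Slc38a2*. These were the only 3 genes of the 6 lists past the limit then, where 8.39% of all genes were. With TMM factors *Slc3a2*, *Sat1* and *Azin1* joined them. *Asl*, the enzyme that follows *Ass1*, had 15.6 CPM in Con and between 26.9 and 32.9 CPM in the other libraries.

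Of 15 genes of ornithine, polyamines and proline, 14 had enough positive cells, with 3 higher and 2 lower at 4 h in Veh. Of all genes 10.2% were higher and 38.3% lower. The list median was -0.23 against -0.36 over all genes. *Odc1*, the ornithine decarboxylase that follows arginase, had 5857 against 1335 CPM. *Sat1* and *Smox*, of polyamine acetylation and oxidation, were also higher, at 514 against 255 CPM and 22.0 against 9.54 CPM. *Paox* had 1.60 against 8.46 CPM and *Pycr1*, of proline synthesis, 5.72 against 10.4 CPM. With TMM factors *Oaz2* was higher too, *Pycr1* was no longer past the limit and the median was 0.20. Of all genes 21.6% were then higher and 21.1% lower.

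Among 17 genes of superoxide and peroxide handling, 16 had enough positive cells, and 3 were higher and 4 lower at 4 h. Of all genes 10.2% were higher and 38.3% lower. The list median was -0.23 against -0.36 over all genes. *Prdx1* had 2174 against 901 CPM, *Prdx5* 541 against 291 CPM and *Cybb*, a subunit of the phagocyte NADPH oxidase, 1396 against 873 CPM. *Gpx4*, *Gpx1*, *Prdx2* and *Prdx6* were lower, at ratios of 0.464, 0.506, 0.647 and 0.653. With TMM factors only *Gpx4* of them was, where 21.1% of all genes were lower, and the median was 0.21. *Ncf1* and *Ncf4* then joined the higher genes, where 21.6% of all genes were higher. Of 17 genes of aromatic amino acid breakdown and the aryl hydrocarbon receptor, 4 had enough positive cells. Only *Kyat3* was past the limit, at 2.65 against 7.93 CPM, where 48.5% of all genes were. The list median was -0.24. TMM factors turned it to 0.19, and *Tiparp* was then higher. *Ido1*, *Ido2*, *Ahr* and *Cyp1b1* had no UMI in any library.

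Between DHA and Veh the limit was passed by 2.03%, 3.07% and 4.64% of all genes with enough positive cells at 0, 1 and 4 h. It was passed by 1, 3 and 2 of the 96, which include genes that too few cells held to count. The counts and the shares thus have unlike bases and cannot be compared directly. *Cat* (catalase) was higher with DHA at 0 h (57.6 against 35.8 CPM), 1 h (54.5 against 36.2 CPM) and 4 h (43.3 against 28.3 CPM). At 1 h *Slc7a8* was also higher, at 36.3 against 24.1 CPM, and *Slc25a1* lower, at 43.7 against 65.8 CPM. At 4 h *Sat1* was lower, at 326 against 514 CPM. With TMM factors *Cat* at 4 h and *Slc25a1* at 1 h were no longer past the limit. No gene of the TCA cycle, arginine, tetrahydrobiopterin or aromatic amino acid lists was past the limit at 4 h.

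**Figure D5:**
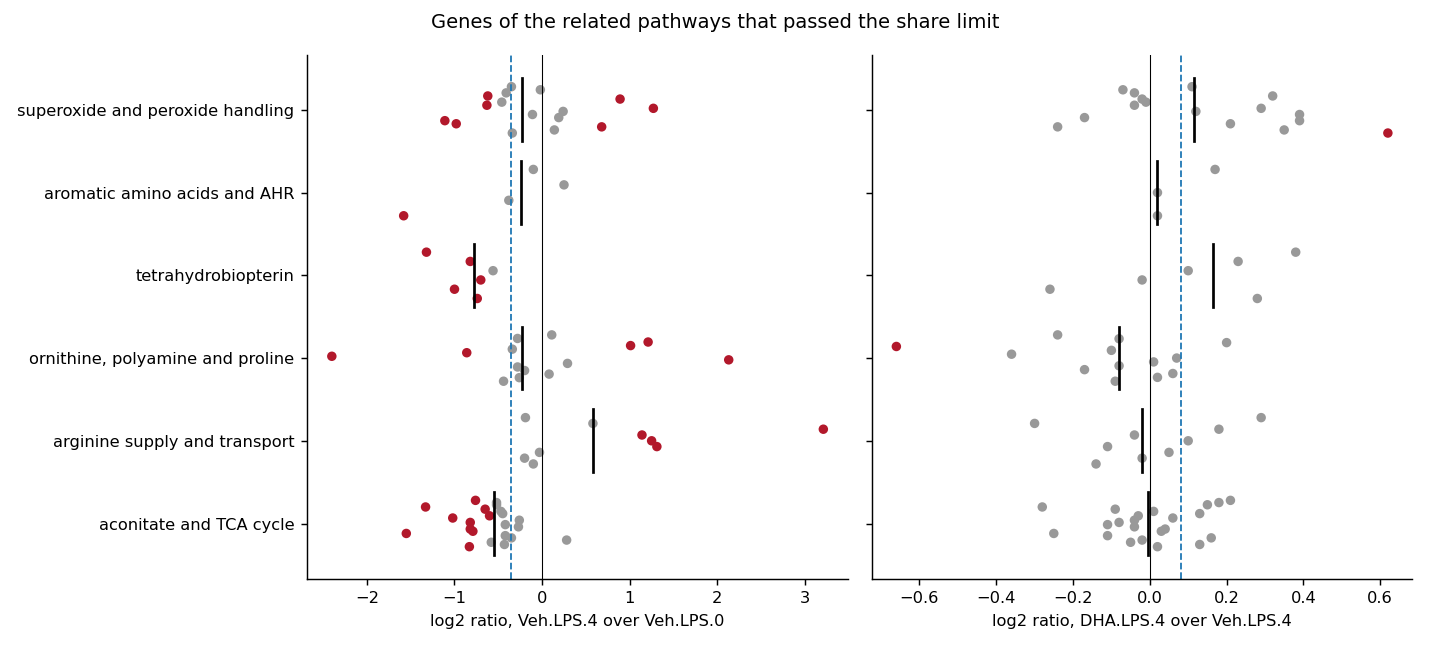
Log2 ratio of CPM for genes of 6 related pathways that 25% or more of the cells of either library held, for Veh.LPS.4 over Veh.LPS.0 (left) and DHA.LPS.4 over Veh.LPS.4 (right, narrower scale). Each point is 1 gene, red where past 1.5-fold, short black bars are list medians and the dashed blue line is the median of all genes (-0.36 and 0.08). On the left the tetrahydrobiopterin and TCA cycle medians (-0.78 and -0.55) lie below that line and the arginine median (0.58) above it, and on the right only *Sat1* and *Cat* are red.

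The genes most like each member were sought by Pearson's r of log2(CPM + 1) over the 7 libraries, among the 8766 genes that 25% or more of the cells of some library held. With 7 points that share a few steep steps of LPS, high values of r are common and describe the shape only. A gene found this way follows its member by selection, so its levels are no separate result. *Acod1* was closest to *Ets2*, *Ccl2* and *Rab11fip1* (r of 0.996, 0.996 and 0.995). *Il4i1* was closest to *Ptk2b*, *Vma21* and *Slfn8* (0.980, 0.980 and 0.972). At 4 h these had 45.6, 337 and 26.5 CPM with vehicle and 41.6, 250 and 9.53 CPM with DHA. *Gch1* was closest to *Slc23a2*, *Man1a* and *Tm9sf4* (0.995, 0.994 and 0.992), and *Sod2* to *Il1b*, *Tgfb1* and *Mief1* (0.995, 0.992 and 0.992). *Arg2* was closest to *Clec4d*, *Ptges* and *Flrt3* (0.997, 0.993 and 0.992), of which *Ptges*, a prostaglandin E synthase, had 8.84 CPM at 4 h with vehicle and 16.5 CPM with DHA. *Ass1*, highest in the DHA libraries of 0 and 1 h, was closest to *Kctd6*, *Ascc2* and *Pbxip1* (0.989, 0.979 and 0.978). Among members the highest r was 0.970, between *Sod2* and *Arg2*.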

How the data were processed

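Single-cell libraries were made with the 10x Chromium 3′ chemistry. Per the file headers and the submitters' processing notes, the authors counted UMIs per gene and barcode with Cell Ranger 3.1.0 on mm10. They deposited these counts without normalization or the study's own filter on cells. The deposited counts cover 2443 to 5722 barcodes per library, and all deposited barcodes means these. The paper's methods name an earlier Cell Ranger version. Here barcodes with more than 20000 UMIs, at least 2000 genes and under 20% mitochondrial UMIs were kept, UMIs were summed per library and divided by the library total (CPM), and no doublet caller was run. Intervals are exact Poisson for CPM, exact conditional binomial for ratios and exact Clopper-Pearson for shares, at 95%, and a count of 0 is given the limit of 3 counts. PCR duplicates were collapsed by the UMI. Cells were thinned without replacement to 20000 UMIs, and all kept cells were deeper.

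The differences rest on 1 library per condition, so no model was fitted and no p-value given. Calls by size, the 9 members named throughout, the pathway lists (up to 4 genes with the largest ratios named per side) and the 3 most similar genes were chosen with earlier results of these data known. Coordinates are those of RefSeq for GRCm38.p6, which is mm10. Of the alternatives, 10 changed scaling (TMM and RLE factors by edgeR 4.0.16), cell filters, thinning, the share limit and the fold, and 2 more were added after the data were seen. Ratios and intervals were tested on simulated Poisson counts with set folds. These hold no clumping of UMIs in cells and no spread between replicate libraries, so the test does not cover either. Python 3.11.15, numpy 2.4.6, scipy 1.17.1, pandas 2.3.3 and R 4.3.3 were used.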

Additional observations from a re-analysis of the deposited data

Results flagged for a closer look

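*Acod1* differed between DHA and Veh in opposite directions at different hours of LPS, with log2 ratios of 0.95 at 0 h, -0.64 at 1 h and -0.10 at 4 h. In cells of 20000 to 40000 UMIs the 0 h and 4 h values turned to -0.05 and 0.28. The 1 h value was -0.32. With all deposited barcodes the 4 h value was -0.41, where the median over all genes was -0.18. The -0.05 rests on 9 UMIs in DHA.LPS.0. Without the 1 cell of each library with most *Acod1* UMIs the 0 h value was 0.39. *Sod2* had log2 ratios of -0.13 at 0 h and -0.25 at 1 h, and 0.15 at 4 h. The 4 h value was -0.16 with all deposited barcodes, near that median of -0.18, and 0.54 in cells of 20000 to 40000 UMIs. Each value compares a single pair of libraries, and the difference between the hours was not tested.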

How the results depend on the processing

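Of 576 member ratios recomputed under alternatives, 409 were classed as unchanged and 167 as moved. No ratio past the limit changed direction, but some that were not past it did. Among these were ratios of DHA.LPS.0 to Veh.LPS.0 over 1.5-fold in size, of genes that too few cells held to count. The log2 ratio of *Acod1* went from 0.95 to -0.05 in cells of 20000 to 40000 UMIs. That of *Il4i1* went from -0.88 to 0.33 with all deposited barcodes. Between DHA.LPS.4 and Veh.LPS.4, *Acod1*, *Gch1*, *Sod2* and *Ass1* changed sign under some settings, and *Il4i1*, *Nos2* and *Arg2* did not. All deposited barcodes also turned the median of all genes there, from 0.08 to -0.18. Of 120 counts of members past the limit, 96 stayed within 1.5 times. No paired analysis was possible because each condition had 1 library. Thinning gave 0 members for DHA against Veh at 0, 1 and 4 h (1 each before) and 0 for DHA.LPS.1 against DHA.LPS.0 (2 before). Fewer cells hold a UMI after thinning by construction, but 2 of these calls were lost on the ratio alone. The *Ass1* call at 0 h missed both limits, with thinned means of 0.1905 UMIs in DHA.LPS.0 and 0.1282 in Veh.LPS.0, within 1.5-fold. Thinned *Acod1* was still in 31.4% of Veh.LPS.1 cells, and its means of 0.777 UMIs in DHA.LPS.1 and 1.1 in Veh.LPS.1 lay within 1.5-fold. So did the thinned *Sod2* means of 6.39 in DHA.LPS.1 and 4.32 in DHA.LPS.0. A limit of 50% of cells gave 0 for DHA against Veh at 0, 1 and 4 h and 1 for DHA.LPS.1 against DHA.LPS.0. Without a share limit the counts were 4 for Veh.LPS.0 against Con, 3 for DHA.LPS.0 against Veh.LPS.0 and 2 for DHA.LPS.1 against Veh.LPS.1. At 2-fold they were 0 for Veh.LPS.0 against Con and for DHA against Veh at 0 and 1 h, 1 for Veh.LPS.1 against Veh.LPS.0 and for DHA.LPS.1 against DHA.LPS.0, and 3 for Veh.LPS.4 against Veh.LPS.1. With all barcodes DHA.LPS.0 against Veh.LPS.0 and DHA.LPS.1 against DHA.LPS.0 had 0, under 10% mitochondrial UMIs the latter had 1, and without the 5% of cells with most UMIs DHA.LPS.1 against Veh.LPS.1 had 0. In cells of 20000 to 40000 UMIs the counts were 0 for DHA against Veh at 0 and 1 h and 3 for Veh.LPS.4 against Veh.LPS.1, and at 4 h the 1 member past the limit between DHA and Veh was *Arg2*, higher, in place of *Il4i1*. Apart from the construction of each setting, the causes were not tested. Scaling moved the split of calls over all genes: of those after LPS in vehicle cells, 21.1% were higher at 4 h (50.6% with TMM factors) and 49.5% at 1 h (61.3%), and 47.8% between DHA.LPS.4 and Veh.LPS.4 (26.8%), and RLE factors moved the 53.2% between DHA.LPS.0 and Veh.LPS.0 to 63.7%.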

Other observations

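The barcodes left out for a high mitochondrial share held the members too. Their *Acod1* level after 4 h of LPS was 444 CPM with vehicle and 430 CPM with DHA, below the 885 and 827 CPM of the kept cells. The total that CPM is scaled by includes mitochondrial UMIs, of which these barcodes hold a larger share. In Veh.LPS.4 *Gch1*, *Sod2* and *Arg2* were lower there too, at 58.1, 465 and 31.6 CPM against 145, 1029 and 73.6 CPM. *Il4i1* was higher, at 67.0 against 37.4 CPM, as were *Arg1* and *Slc7a2*, on few UMIs. The *Nos2* level of these barcodes at 4 h was 9.13 CPM with vehicle and 23.3 CPM with DHA, so that DHA was higher than Veh there as in kept cells. Their *Arg1* level was 0.418 to 0.786 CPM over the 7 libraries.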
